A study of Mus musculus with 48 samples.

Results

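The genes examined here are 9 genes of the adult granulosa cell, namely Fshr, Cyp19a1, Hsd17b1, Esr2, Nr5a2, Nr0b1, Pparg, Grem1 and Gja1. They were taken by symbol, and all 9 were present among the 22173 genes of the count table of gonadal somatic cells (GSCs) and, by Ensembl ID, among the 32285 gene IDs of the 10x table. The FPKM table lists 13682 genes and 6 of the 9 were among them, so that Fshr, Cyp19a1 and Nr0b1 have no value there. The study sought small molecules that turn female mouse embryonic stem cells (ESCs) into cells like the somatic cells of the fetal gonad. All cells were of the C57BL/6 strain by the labels. GSCs were obtained from the fetal female gonad (E12.5, E13.5, E16.5) and from the ovary at 6 weeks of age (P6w), with 2 libraries per stage. In a second set, ESCs were cultured without compounds (Con), with vitamin C (Vc), with the retinoic acid receptor agonist AM580, or with both compounds together (V580), for 24 h or 48 h, with 2 libraries each. In a further set, V580 cells of day 4, 6, 8 and 10 (V580_D4 to V580_D10) were compared with gonadal cells of E12.5 embryos (E12.5_GC), with 3 libraries each, and 1 further library of V580 cells of day 6 was made with the 10x single-cell method. By the study's methods, germ cells were removed from E12.5 gonads by their SSEA1 surface mark, and the bulk samples are mixed populations of the remaining cells. The sources used here do not say whether libraries of 1 group came from separate animals or cultures, so that p values measure only the spread between these libraries.

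Granulosa cells surround the oocyte in the ovarian follicle. In the growing follicle they carry the receptor for follicle-stimulating hormone (FSH), which acts through cyclic AMP, and they convert androgens from the neighbouring theca cells into estrogens with aromatase. They also tell the oocyte and each other about the state of the follicle through gap junctions and through ligands and antagonists of the bone morphogenetic protein (BMP) family. In the fetal ovary their precursors, the pregranulosa cells, have not yet formed follicles.

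The stage libraries held 12694769 to 22259044 counts. Lane 5 carried all libraries of E12.5 and E13.5 and replicate 1 of E16.5, and lane 1 carried replicate 2 of E16.5 with the P6w pair. The E16.5 replicates stood further apart than the others, with a chi-square per degree of freedom of 37.9 over genes against 6.02 to 6.93 at the other stages. The granulosa marker Foxl2 was found in every library, at 5.79 and 6.62 CPM (counts scaled to a library of 1000000) at E12.5 and 20.3 and 22.3 CPM at P6w. The fetal libraries also held red blood cell RNA. The 7 erythroid markers summed to 13300 to 14700 CPM at E12.5, 27400 to 29500 CPM at E13.5, then 6590 to 10900 CPM at E16.5 and 193 to 214 CPM at P6w.

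Fshr encodes the FSH receptor. It lies on chromosome 17 (88984952 to 89200675, minus strand, GRCm38). Its counts were 0 and 1 at E12.5, 0 and 0 at E13.5, then 0 and 2 at E16.5, and 1210 and 1308 at P6w, the latter 98.9 and 109 CPM. No library of the 3 fetal stages thus held more than 2 counts, and the P6w libraries lay far above. Scaled to library size, the summed counts were 4342 times higher at P6w than at E12.5, with a 95% counting interval of 778.6 to 171600, and 2047 times higher than at E16.5 (566.1 to 16910). These intervals, like those that follow, cover counting error only.

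The 2 steroid enzymes were nearly as low in the fetal stages. Cyp19a1 on chromosome 9 (54165937 to 54268110, minus strand) encodes aromatase, which makes estrogens from androgens. Its counts were 15 and 2 at E12.5, 0 and 5 at E13.5, then 40 and 29 at E16.5, and 3881 and 3659 at P6w. The P6w libraries stood at 317 and 305 CPM, the E16.5 libraries next, and E12.5 and E13.5 overlapped. The summed counts at P6w were 764.8 times those at E12.5 (477.4 to 1314) and 177.7 times those at E16.5 (140.2 to 228.6). Hsd17b1 on chromosome 11 (101078411 to 101080527, plus strand) encodes the dehydrogenase that turns estrone into the more active estradiol. Its counts were 18 and 10 at E12.5, 3 and 6 at E13.5, then 14 and 16 at E16.5, and 9215 and 8863 at P6w. The fetal libraries stayed at or below 18 counts, and the ratio of P6w to E12.5 was 1113 (770.1 to 1676).

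Esr2, on chromosome 12 (76120419 to 76177259, minus strand), encodes estrogen receptor beta, the main estrogen receptor of granulosa cells. Its counts were 9 and 19 at E12.5, 16 and 21 at E13.5, then 49 and 30 at E16.5, and 2806 and 2516 at P6w, so that the P6w libraries were 327.8 times above E12.5 (226.5 to 493.7). The E16.5 libraries also lay above all 4 earlier ones. Nr5a2, on chromosome 1 (136842571 to 136960448, minus strand), encodes a nuclear receptor that binds DNA as a monomer and is required in granulosa cells for ovulation. It gave 14 and 8 counts at E12.5, 10 and 8 at E13.5, then 74 and 42 at E16.5, and 4255 and 3878 at P6w. E12.5 and E13.5 overlapped, E16.5 lay above both, and P6w was 637.5 times above E12.5 (420.8 to 1018).

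Pparg, on chromosome 6 (115360951 to 115490399, plus strand), encodes a lipid-sensing nuclear receptor that pairs with RXR and that is also known from adipocytes, macrophages and placenta. Its counts were 0 in all 4 libraries of E12.5 and E13.5, then 18 and 8 at E16.5, and 1076 and 1136 at P6w. With 3 counts over the group set as the floor for E12.5, P6w was at least 1271-fold higher and E16.5 at least 9.19-fold higher than E12.5. P6w was 138.3 times above E16.5 (94.16 to 212.3). The 6 adipocyte markers summed to 7.46 to 8.62 CPM at E12.5 and 3.16 to 5.8 CPM at P6w, Lep was at 0 in both P6w libraries, and Adipoq gave 2 and 1 counts there. The 6 immune markers summed to 47.9 to 54.8 CPM at E12.5 and 182 to 185 CPM at P6w, and their part in the Pparg counts was not tested.

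Grem1, on chromosome 2 (113746164 to 113758646, minus strand), encodes a secreted BMP antagonist that granulosa and cumulus cells make in response to the oocyte. Its counts were 0 and 1 at E12.5, 0 and 0 at E13.5, then 3 and 12 at E16.5, and 2761 and 2719 at P6w. The ratio of P6w to E12.5 was 9450, with a wide interval of 1695 to 373300 since it rests on 1 fetal count, and the ratio of P6w to E16.5 was 594.1 (359.9 to 1062). Gja1, on chromosome 10 (56377330 to 56402513, plus strand), encodes connexin 43, the gap junction protein that couples granulosa cells to each other. Unlike the genes described so far it was plain in the fetal cells. It stood at 132 and 135 CPM at E12.5, 111 and 108 CPM at E13.5, then 205 and 334 CPM at E16.5, and 3532 and 3843 CPM at P6w. No library of P6w overlapped with a fetal one, and the ratio of P6w to E12.5 was 27.62 (26.88 to 28.38).

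Nr0b1, on the X chromosome (86191764 to 86195947, plus strand), encodes DAX1, a receptor without a usual DNA-binding domain that represses Nr5a1 and Nr5a2 targets. It went against the name of the group. Its levels were 36.2 and 40 CPM at E12.5, 37.3 and 36.4 CPM at E13.5, then 26.4 and 28.4 CPM at E16.5, and 34.6 and 32.2 CPM at P6w. P6w thus lay below E12.5 and above E16.5. The log2 fold change of P6w against E12.5 was -0.19 with an SE of 0.14 and an adjusted p of 0.284 in edgeR, and that against E16.5 was 0.29 (SE 0.15, adjusted p 0.103).

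**Figure D1:**
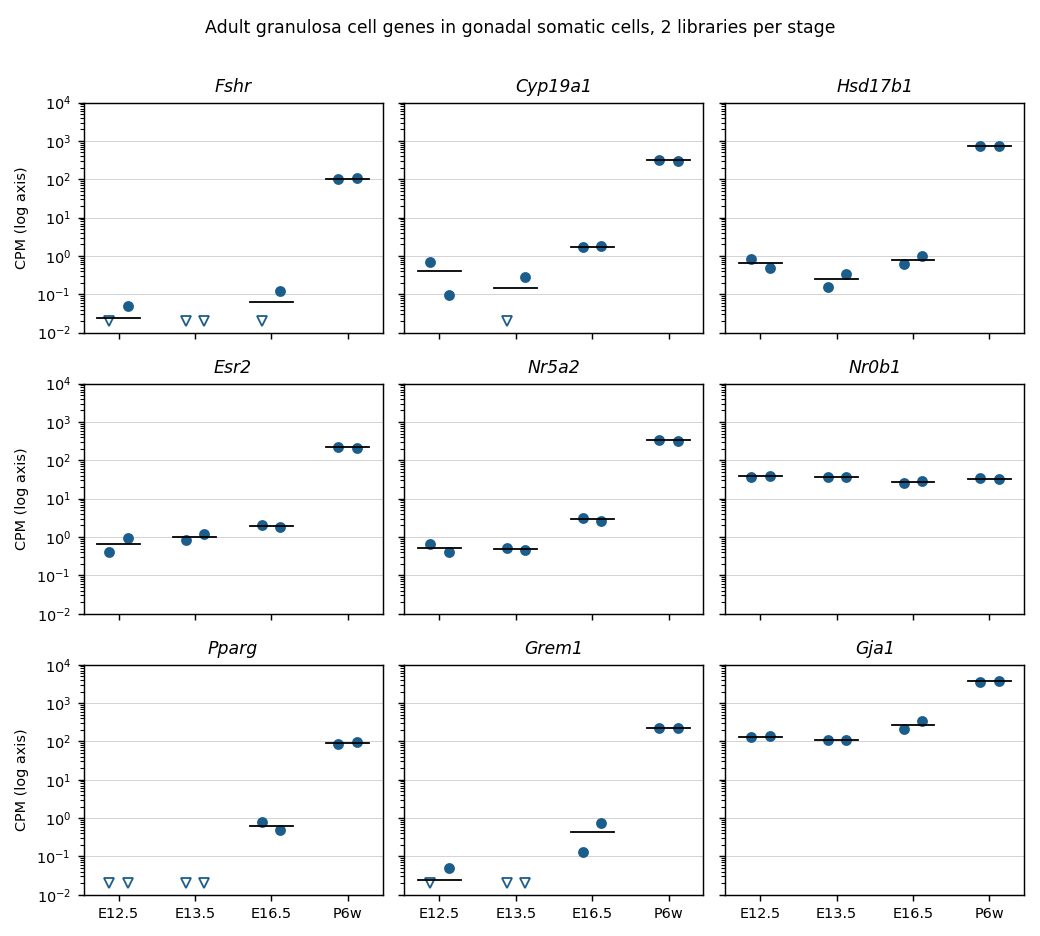
CPM of the 9 genes on a log axis in GSCs by stage. Each filled point is 1 of 2 libraries per stage, the lines are means, and open triangles at the foot mark libraries with 0 counts. The P6w points lie above all fetal points for every gene except Nr0b1, whose libraries stand between 26.4 and 40 CPM at all 4 stages.

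The same values were tested with edgeR's quasi-likelihood test over all 16398 genes that passed the filter on low counts, with Benjamini-Hochberg (BH) adjusted p below 0.05 as the call. Against E12.5, 8 of the 9 genes were called higher at P6w, and against E16.5 the same 8. At these comparisons 52.9% and 56.1% of all tested genes were called, 25.4% and 26.3% as higher. Fshr, Grem1 and Pparg passed the filter only through the P6w libraries and had to differ, so their calls add nothing to the counts above. Among the 6 that passed it also without P6w, Cyp19a1, Hsd17b1, Esr2, Nr5a2 and Gja1 were called higher and Nr0b1 was not. The log2 fold changes of P6w against E12.5 were 9.56 (SE 0.34) for Cyp19a1, with an adjusted p of 7.62e-12 in edgeR, and 10.11 (SE 0.22) for Hsd17b1, with 9.14e-14. Esr2 was higher by 8.34 (SE 0.25, edgeR adjusted p 1.14e-12), Nr5a2 by 9.30 (SE 0.21, 1.00e-13) and Gja1 by 4.79 (SE 0.20, 3.49e-11). P6w shared lane 1 only with the second E16.5 library. Within that lane the 8 genes were still higher at P6w, with log2 fold changes from 3.46 for Gja1 to 9.64 for Fshr, and Nr0b1 differed by 0.24 (edgeR adjusted p 0.214). P6w and E12.5 shared no lane, and for them stage and lane cannot be told apart. In these bulk libraries fewer cells of a type and less RNA per cell cannot be told apart either.

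Several of these genes had begun to move by E16.5. Against E12.5, 6 of the 9 were called higher and 1 lower at E16.5, where 37.6% of all genes were called. Of the 6 genes that passed the filter without P6w, 4 were higher and 1 lower. Among these, Cyp19a1 and Nr5a2 did so only through the E16.5 libraries, where they were high. Before E16.5 only 1 library of each had enough counts. Their place in this subset is thus no support, and their values are a description. Nr5a2 rose by 2.46 on the log2 scale (SE 0.28, edgeR adjusted p 7.33e-06), Cyp19a1 by 2.09 (SE 0.50, 0.00397), Esr2 by 1.56 (SE 0.33, 0.00161) and Gja1 by 1.01 (SE 0.17, 0.000323). Pparg and Grem1, which were in the test only because of P6w, were the others. Pparg was called with an edgeR adjusted p of 0.000199 and Grem1, with 15 counts against 1, a ratio of 15.91 (2.447 to 669.7), at 0.0169. Nr0b1 fell by 0.48 on the log2 scale (SE 0.14, edgeR adjusted p 0.016). Fshr, with 2 counts against 1, and Hsd17b1, with 30 against 28, were not called. The stromal markers also stood higher at E16.5, at 2810 to 3170 CPM over 9 genes against 871 to 939 CPM at E12.5, and their part in these values was not tested. On lane 5 alone, that is with the first E16.5 library only, Nr5a2 stood 2.59 higher and Gja1 0.62 higher, and the call of Grem1 was lost (edgeR adjusted p 0.195). The call of Grem1 was also lost without the first E12.5 library (edgeR adjusted p 0.112), that of Nr0b1 without the first or the second E12.5 library (0.0528 and 0.149), and that of Cyp19a1 in DESeq2 (adjusted p 0.148).

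Between E13.5 and E12.5 there was little to see among these genes, although 45.9% of all genes were called. Hsd17b1 was the only 1 of the 9 called, lower by 1.44 on the log2 scale (SE 0.48, edgeR adjusted p 0.0239). It rests on 9 counts against 28, and the call was lost without the first E12.5 library (edgeR adjusted p 0.225) or the first E13.5 library (0.213). Gja1 differed by -0.28 (SE 0.17, edgeR adjusted p 0.192) and Esr2 by 0.57 (SE 0.38, 0.235). Markers of other cells moved between these stages. The 8 Sertoli markers, with Nr0b1 among them, summed to 196 to 198 CPM at E12.5 and 83.4 to 84.5 CPM at E13.5. Nr0b1 itself made up 36.2 to 40 CPM of this at E12.5 and 36.4 to 37.3 CPM at E13.5. The 6 endothelial markers summed to 221 to 222 CPM at E12.5 and 103 to 105 CPM at E13.5, and the 6 liver markers to 4.45 to 4.86 CPM and 171 to 173 CPM. Their part in these values was not tested.

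To compare the genes with each other, levels were set per exon length as RPKM, that is CPM per kilobase of exon. At P6w the mean was 557 RPKM for Hsd17b1, 360 for Gja1, 68.7 for Cyp19a1, 65.1 for Esr2, 56.8 for Nr5a2, 54.5 for Grem1, 44 for Fshr, 30.9 for Pparg and 18.5 for Nr0b1. Cyp19a1 at 70.1 and 67.3 RPKM overlapped with Esr2 at 68.0 and 62.2 RPKM, and Nr5a2 at 58.9 and 54.7 RPKM reached down to Grem1 at 54.4 and 54.6 RPKM, with no clear gap between those last 2. The other neighbours in that order did not overlap. At E12.5 the order was another one. Nr0b1 was highest with a mean of 21.1 RPKM, followed by Gja1 with 13.0, and no other gene of the 9 exceeded the 0.496 RPKM of Hsd17b1. The gene lowest at P6w was thus the highest at E12.5.

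Over the 8 stage libraries, log2 CPM of the 8 genes other than Nr0b1 followed each other with a Pearson r of 0.975 to 0.998 in 28 pairs, and Nr0b1 gave -0.236 to -0.0423 with the others. The libraries fall into a fetal and an adult set, so these values describe that gap. The genes with the most similar course were Inhba for both Nr5a2 (r = 0.999) and Gja1 (r = 0.995), with Slfn4 second for both Pparg and Nr5a2. Inhba encodes the activin beta A subunit. Serpina5 followed Fshr (r = 0.9996), Arhgef28 followed Cyp19a1 (r = 0.999), Plin4 followed Hsd17b1 (r = 0.999), Ano4 followed Grem1 (r = 0.998), Rasl10a followed Pparg (r = 0.999) and Cnmd followed Esr2 (r = 0.997). Nop56 came nearest to Nr0b1 (r = 0.983). Each r was taken over 8 libraries.

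Genes of the same pathways were read from lists, and their log2 fold changes between P6w and E12.5 are set here beside a median of -0.041 over all tested genes. Of 9 tested genes for the steps of estrogen synthesis, 8 were higher and 0 lower (median 1.56), led by Cyp11a1 (8.30), Hsd3b1 (7.99) and Cyp17a1 (6.16), which make progesterone and androgens from cholesterol. The list summed to 553 to 595 CPM at E12.5 and 8190 to 8300 CPM at P6w. The theca and Leydig markers, which share Cyp17a1 with it, rose beside it from 188 to 210 CPM at E12.5 to 932 to 970 CPM at P6w, and their part was not tested. Of 20 genes for FSH receptor and cyclic AMP signalling, 10 were higher and 6 lower (median 0.29), led by the LH receptor gene Lhcgr (5.20), Foxo1 (4.55) and Prkar2b (4.26), a regulatory subunit of protein kinase A. Of 20 other granulosa genes, 11 were higher and 7 lower (median 0.57). The inhibin and activin subunits Inhba (11.26), Inha (7.95) and Inhbb (4.29) led these.

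The lists of relatives of the single genes held calls in both directions, beside 52.9% of all tested genes called, 25.4% as higher. The shares called in the BMP, estrogen receptor and nuclear receptor lists lay near that background. Among 10 connexin genes other than Gja1, 9 were tested, 1 was higher and 6 were lower at P6w (median -2.38). Gja3, a connexin known from the lens, was the higher one, with 0 counts in both E12.5 libraries and 19 and 15 at P6w. Gjb5, with 74 and 89 counts at E12.5 and 2 and 2 at P6w, was among the lower ones. Of 12 PPAR and RXR genes and targets, 2 were higher and 6 lower (median -0.46). The fatty acid transporter gene Cd36 was higher (4.44) and Rxrg lower, with 29 and 17 counts at E12.5 and 2 and 1 at P6w. Of 18 genes of the BMP and GDF9 pathway, 5 were higher and 6 lower (median 0.02). The oocyte ligands stood higher, Gdf9 by 3.27 and Bmp15 with 59 and 20 counts at P6w against 0 in both E12.5 libraries, and Bmp7 was lower (-4.03). The oocyte markers as a whole, which include these 2 ligands, summed to 8.71 to 8.94 CPM at E12.5 and 64.3 to 151 CPM at P6w. Of 10 partners and targets of estrogen receptors 4 were higher and 2 lower (median -0.04), led by Greb1 (3.61), an estrogen receptor target, Gper1 (1.84) and Esr1 (1.19). Of 9 tested nuclear receptors near Nr5a2 and Nr0b1, 2 were higher and 3 lower (median -0.11), with Nr2f1 (-4.61) and Nr2f2 (-1.52) lower and Rora (1.34) higher.

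Since 8 of the 9 genes moved together between the stages, the bases before their transcription starts were read from the RefSeq annotation of GRCm38.p6, which gave a window for all but Hsd17b1. The 4 windows printed here hold the 250 bases before the start, 5′ to 3′ on the strand of the gene. Fshr and Esr2 are shown because they were the 2 of the 8 genes with the E-box CACGTG, which basic helix-loop-helix factors bind. Nr5a2 and Nr0b1 are shown as the partner nuclear receptors, of which one followed the group and the other did not. Capitals mark the E-box, the nuclear receptor site AGGTCA, the GATA site AGATAA, the TATA box TATAAA and the first bases of the cyclic AMP response element TGACG, on either strand.
Fshr, chr17:89200676-89200925, minus strand: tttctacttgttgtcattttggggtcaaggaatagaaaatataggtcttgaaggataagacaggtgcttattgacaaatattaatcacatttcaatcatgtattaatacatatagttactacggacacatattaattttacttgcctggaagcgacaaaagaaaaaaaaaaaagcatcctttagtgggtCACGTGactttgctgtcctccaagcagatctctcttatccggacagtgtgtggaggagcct
Esr2, chr12:76177260-76177509, minus strand: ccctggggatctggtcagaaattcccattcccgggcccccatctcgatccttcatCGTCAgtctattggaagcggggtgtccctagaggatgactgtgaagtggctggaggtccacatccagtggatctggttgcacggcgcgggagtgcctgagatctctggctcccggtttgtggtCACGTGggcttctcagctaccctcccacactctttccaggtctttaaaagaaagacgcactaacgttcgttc
Nr5a2, chr1:136960449-136960698, minus strand: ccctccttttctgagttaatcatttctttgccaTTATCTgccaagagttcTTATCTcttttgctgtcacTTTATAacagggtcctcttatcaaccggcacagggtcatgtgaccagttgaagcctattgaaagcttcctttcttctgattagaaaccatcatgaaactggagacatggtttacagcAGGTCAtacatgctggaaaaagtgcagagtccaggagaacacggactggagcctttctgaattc
Nr0b1, chrX:86191525-86191774, plus strand: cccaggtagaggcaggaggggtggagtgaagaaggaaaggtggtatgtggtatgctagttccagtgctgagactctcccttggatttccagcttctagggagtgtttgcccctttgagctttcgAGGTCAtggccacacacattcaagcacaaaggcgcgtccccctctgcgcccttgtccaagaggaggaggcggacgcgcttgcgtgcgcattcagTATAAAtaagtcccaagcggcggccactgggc

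The E-box began 61 bases before the start in Fshr and 72 bases before it in Esr2. Among 32851 RefSeq windows of 300 bases, 7.15% held an E-box. An AGGTCA site began 64 bases before the start in Nr5a2 and 126 bases before it in Nr0b1, and also lay in windows of Grem1, Pparg and Cyp19a1. It was present in 16.3% of all windows. A TATA box began 32 bases before the start of Nr0b1 and also lay in windows of Cyp19a1, Pparg and Nr5a2 (13.6% of all windows), the GATA site occurred in Nr5a2 and Gja1 (11.2%) and TGACG in Esr2 and Gja1 (20.8%). No window of these genes held the full cyclic AMP response element TGACGTCA (1.79% of all windows), the extended site CAAGGTCA of Nr5a1 and Nr5a2 (1.56%), the palindromic estrogen response element (0.07%) or the direct repeat bound by PPAR with RXR (0.0396%). AGGTCA shares letters with the last 3 of these. The E-box and AGGTCA were added to the search after the windows were read, and all of these are matches of letters only.

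Next, the 6 listed genes were followed in V580 cells from day 4 to day 10 against E12.5_GC. The table gives FPKM, fragments per kilobase of exon in a library scaled to 1000000 fragments, and the estimated depth was 16400000 to 28300000 fragments per library. The E12.5_GC libraries held erythroid RNA, with 3 markers summing to 1040 to 4430 FPKM, against at most 0.739 FPKM in any V580 library of day 4 to 10. Gja1 was at 20.8, 14.6 and 16.1 FPKM in E12.5_GC, 18.5, 17.9 and 18.2 FPKM on day 4, 41.0, 43.1 and 40.6 FPKM on day 6, 43.5, 42.8 and 41.7 FPKM on day 8, and 46.4, 45.7 and 45.3 FPKM on day 10. The day 4 libraries fell within the range of E12.5_GC, and those of day 6 and later lay above all of them. Pparg was at 0.0609, 0.173 and 0.0173 FPKM in E12.5_GC, 2.38, 1.70 and 1.92 FPKM on day 4, 1.96, 1.80 and 1.96 FPKM on day 6, 1.24, 1.07 and 1.18 FPKM on day 8, and 2.19, 1.53 and 1.33 FPKM on day 10. All 12 V580 libraries lay above the 3 of E12.5_GC. The 2 listed adipocyte markers summed to at most 0.02 FPKM in these V580 libraries and to 0.358 to 0.499 FPKM in E12.5_GC.

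The other listed genes were below 1 FPKM in every one of these 15 libraries. Grem1 lay at 0.182, 0.0205 and 0.135 FPKM in E12.5_GC, and its V580 means were 0.764 ± 0.109 FPKM on day 4, 0.542 ± 0.059 on day 6, 0.422 ± 0.0976 on day 8 and 0.385 ± 0.0401 on day 10 (SD, n = 3), every library above E12.5_GC. Esr2 went the other way. It stood at 0.353, 0.266 and 0.212 FPKM in E12.5_GC and at 0.013 to 0.107 FPKM in the 12 V580 libraries, with no overlap. Nr5a2 was at 0.512, 0.275 and 0.381 FPKM in E12.5_GC, at 0.0715 ± 0.0146 FPKM on day 4, 0.0789 ± 0.0348 on day 6, 0.251 ± 0.0493 on day 8 and 0.156 ± 0.0256 on day 10 (SD, n = 3), and only day 8 overlapped with E12.5_GC. Hsd17b1 was at 0.3 ± 0.112 FPKM in E12.5_GC and between 0 and 0.467 FPKM in the V580 libraries, which overlapped on day 4.

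**Figure D2:**
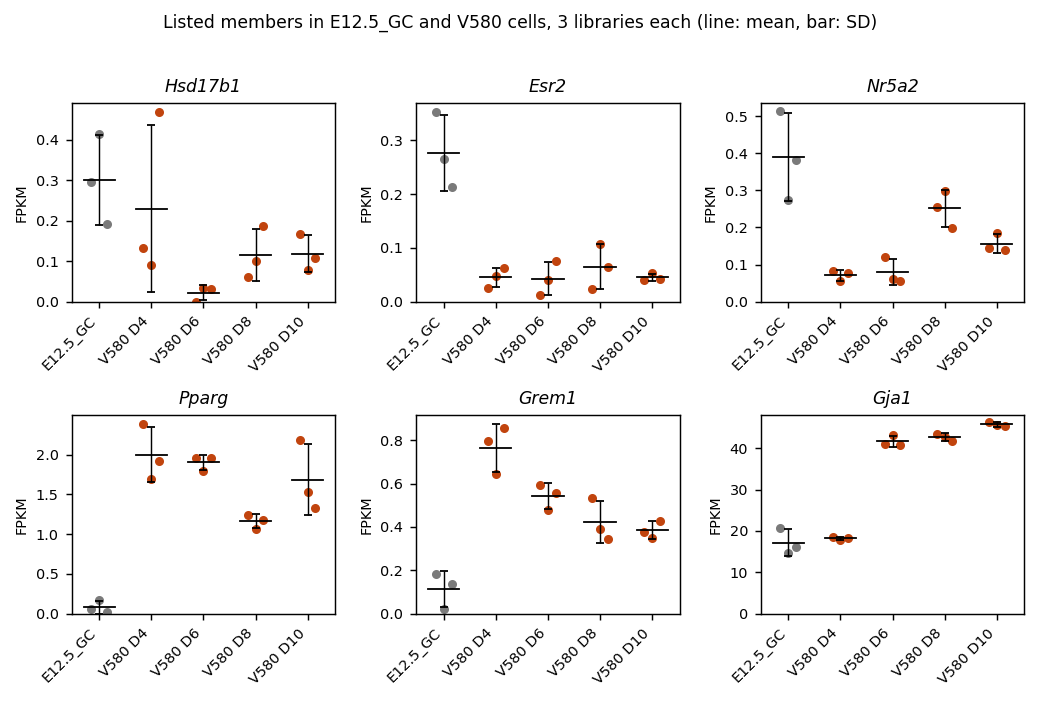
FPKM of the 6 listed genes in E12.5_GC (grey) and in V580 cells of day 4, 6, 8 and 10 (orange). Points are the 3 libraries of each group, lines the means and bars the SD. Gja1 steps up from 18.2 FPKM on day 4 to 41.6 FPKM on day 6, Pparg and Grem1 lie above E12.5_GC on every day, and Esr2 lies below it.

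Gja1 and Pparg passed the filter on low FPKM and were tested with limma on log2(FPKM + 1), where a fold change of a low gene is understated. Calls needed 2-fold and a BH adjusted p below 0.05. Gja1 was not called on day 4, where 20.4% of all 11512 tested genes were, and was called on day 6 (15.2%), day 8 (13%) and day 10 (16.4%). Pparg reached 1 FPKM in all V580 libraries and in 0 of 3 of E12.5_GC, so that it passed the filter only through V580 and had to differ, and its values are a description. They were 1.47 on day 4, 1.43 on day 6, 1.00 on day 8 and 1.30 on day 10 on the log2 scale. Gja1 differed by 0.10 on day 4 (SE 0.09, limma adjusted p 0.357) and was higher by 1.24 on day 6, 1.28 on day 8 and 1.38 on day 10 (SE 0.09 each, adjusted p from 3.71e-09 to 1.33e-08). From day 4 to day 10 Gja1 rose by 1.28 (limma adjusted p 1.20e-08, 12.3% of genes called), and most of that rise lay between day 4 and day 6, where it was 1.15 (limma adjusted p 1.18e-07, 5.08% of genes called). The comparison of day 6 with day 4 was added after the values were seen.

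FPKM times exon length came out as whole fragments for all 6 genes in every library, so a count test with edgeR on those fragments was added after the values were seen. It could test 5 of the 6 genes, all but Hsd17b1. Only E12.5_GC brought Esr2 past its filter on low counts, and only V580 brought Pparg and Grem1 past it, with 1 and 2 of the 3 E12.5_GC libraries at the limit. Their directions against E12.5_GC were thus largely fixed by the filter, and their values are a description. Esr2 had 33, 21 and 14 fragments in E12.5_GC and 1 to 8 in the V580 libraries, and was lower by 2.58 on day 4, 2.66 on day 6, 2.09 on day 8 and 2.56 on day 10 (SE 0.43 to 0.47). Nr5a2 had 84, 38 and 44 fragments in E12.5_GC and 8 to 16 on days 4 and 6. It was lower by 2.44 on day 4 (SE 0.32, edgeR adjusted p 6.48e-06), 2.29 on day 6 (SE 0.32, 1.5e-05) and 1.28 on day 10 (SE 0.28, 0.000995), and differed by -0.62 on day 8 (SE 0.27, 0.0544). The 11 naive pluripotency genes summed to 122 to 344 FPKM in E12.5_GC and to 45.3 to 73.9 FPKM in the V580 libraries. Their part in the Nr5a2 values was not tested. Grem1 had 21, 2 and 11 fragments in E12.5_GC and 35 to 85 in the V580 libraries, and was higher by 2.72 on day 4, 2.23 on day 6, 1.89 on day 8 and 1.75 on day 10. Pparg was higher by 4.51 on day 4 and 4.45 on day 6 in the same test (SE 0.35 and 0.36). Of Gja1 and Nr5a2, the other 2 genes, Nr5a2 was called at 2-fold on day 4 (31.8% of 12323 tested genes), both on day 6 (25.5%), Gja1 on day 8 (22.1%) and both on day 10 (26.9%).

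Between day 4 and day 10 the genes parted. In edgeR on fragments, Gja1 rose by 1.35 (SE 0.10, adjusted p 1.36e-08) and Nr5a2 by 1.16 (SE 0.36, adjusted p 0.0106), from 8 to 11 fragments per library to 17 to 31. Grem1 fell by 0.97 (SE 0.30, edgeR adjusted p 0.0123), which is under 2-fold. Pparg differed by -0.22 (SE 0.23, edgeR adjusted p 0.423) and Esr2 by 0.02 (SE 0.64, 0.981). At 2-fold, 2 of the 5 were called (21.7% of genes), and between day 4 and day 6 1 of the 5, Gja1 (12.1%). The 9 stromal markers summed to 256 to 289 FPKM on day 4, 299 to 316 FPKM on day 6 and 1840 to 2280 FPKM on day 10. The 6 endothelial markers summed to 4.61 to 5.16 FPKM on day 4, 20.2 to 21.3 FPKM on day 6 and 54.2 to 55.1 FPKM on day 10. Their part in these values was not tested.

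The related lists were read on day 6 against E12.5_GC, with limma, beside 15.2% of all genes called and a median of 0.026. Of 19 tested granulosa genes outside the 9, 3 were higher and 12 lower (median -1.40), with Nr5a1 (-6.24), Kitl (-5.16) and Amhr2 (-4.48) lowest. Of 7 tested genes for estrogen synthesis, 0 were higher and 2 lower, Hsd3b1 (-3.13) and Fdxr (-2.72). Of 11 tested PPAR and RXR genes, none of which is Pparg itself, 0 were higher and 6 lower (median -1.17), among them Angptl4 (-3.71), a known target of PPAR receptors, and Ppara (-1.86). Of 5 tested connexins 3 were higher and 1 lower (median 1.01), with Gjb2 (4.20) among the higher ones and Gja4 (-2.19) lower. Of 16 tested genes of the BMP pathway, 2 were higher and 2 lower (median 0.18). The antagonist gene Nog (1.92) and Bmp4 (1.55) stood higher and Bmp2 lower (-3.10).

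The ESCs treated for 24 h and 48 h were examined for the same 6 genes. Nr5a2, which is also active in ESCs, was at 3.41 and 2.95 FPKM in Con at 24 h, 3.61 and 4.52 FPKM with Vc, 1.85 and 1.66 FPKM with AM580, and 2.90 and 3.22 FPKM with V580. The AM580 libraries lay below all others and those of V580 overlapped with Con. At 48 h Nr5a2 was at 0.810 and 0.813 FPKM in Con, 1.02 and 1.07 FPKM with Vc, 0.276 and 0.385 FPKM with AM580, and 0.407 and 0.445 FPKM with V580. AM580 and V580 now both lay below Con. Gja1 was at 36.8 and 36.1 FPKM in Con at 24 h and between 33.6 and 38.3 FPKM in the treated libraries. At 48 h it was at 62.9 and 64.8 FPKM in Con, 53.9 and 54.9 FPKM with Vc, 62.1 and 58.1 FPKM with AM580, and 42.2 and 42.1 FPKM with V580. The V580 libraries were the lowest at 48 h, Vc next, and AM580 lay just below Con.

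Hsd17b1 was at 0.418 and 0.637 FPKM in Con at 24 h and at 1.503 and 1.42 FPKM at 48 h. The treated libraries of 48 h stood at 0.831 and 0.516 FPKM with Vc, 0.913 and 1.498 FPKM with AM580, and 0.485 and 0.491 FPKM with V580, so that Vc and V580 lay below Con and AM580 reached it. Grem1 was at 1.83 and 1.92 FPKM in Con at 24 h and at 0.776 and 0.985 FPKM at 48 h. At 48 h it was at 0.693 and 1.05 FPKM with Vc, 0.908 and 0.649 FPKM with AM580, and 0.374 and 0.369 FPKM with V580, and only the V580 libraries lay clear of Con. Pparg stayed at or below 0.107 FPKM and Esr2 at or below 0.344 FPKM in all 16 libraries.

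**Figure D3:**
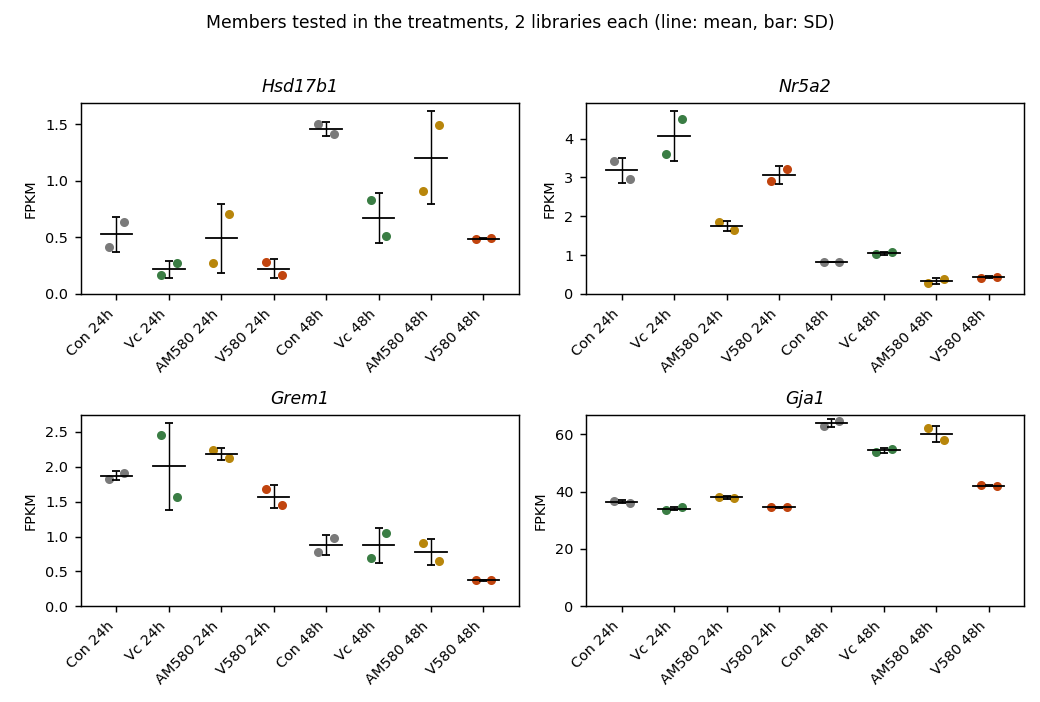
FPKM of Hsd17b1, Nr5a2, Grem1 and Gja1 in ESCs by treatment and time (24 h, 48 h). Points are the 2 libraries of each group, lines the means and bars the SD. V580 at 48 h has the lowest mean of the 48 h groups for Hsd17b1, Grem1 and Gja1, and AM580 has the lowest mean for Nr5a2 at both times.

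These 4 genes were tested with limma among 10644 genes. At an adjusted p below 0.05 and at least 2-fold, 0 of the 4 were called in any of the 8 comparisons of treatments. The shares of all genes called at 24 h were 0.0846% for Vc, 0.404% for AM580, 0.695% for V580 and 0.0658% for V580 against AM580, and at 48 h 0.047%, 3.23%, 3.18% and 0.263%. At an unadjusted p below 0.05 without the fold limit, 3, 1, 1 and 3 of the 4 genes passed in the 4 comparisons at 24 h, and 2, 2, 4 and 3 at 48 h. Of all 10644 genes, 2875, 2858, 4199 and 3001 passed at 24 h, and 2884, 6533, 6532 and 3453 at 48 h. At an adjusted p below 0.05 without that limit, 0, 1, 0 and 2 of the 4 were called at 24 h (13.6%, 14.8%, 29% and 14.8% of all genes) and 2, 1, 4 and 3 at 48 h (12.4%, 57%, 57.1% and 19.2%). Hsd17b1 is 1 of those called at 48 h with Vc, with V580 and with V580 against AM580.

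The naive pluripotency genes, a list of 11, moved beside Nr5a2, and their part was not tested. They summed to 1030 to 1090 FPKM in Con at 24 h, 957 to 972 FPKM with AM580 and 968 to 973 FPKM with V580, and at 48 h to 600 to 611 FPKM in Con, 311 to 328 FPKM with AM580 and 321 to 325 FPKM with V580. With AM580 alone, Nr5a2 was lower than in Con by 0.60 at 24 h (SE 0.09, limma adjusted p 0.000204) and by 0.45 at 48 h (SE 0.09, 0.000501). With V580 the difference from Con was -0.04 at 24 h (SE 0.09, limma adjusted p 0.765) and -0.35 at 48 h (SE 0.09, 0.00346). V580 stood above AM580 by 0.56 at 24 h (limma adjusted p 0.000579) and differed from it by 0.10 at 48 h (0.454). Gja1 was lower with V580 than with Con at 48 h by 0.59 (SE 0.04, limma adjusted p 1.01e-08) and lower than with AM580 by 0.50 (SE 0.04, 6.25e-07). With Vc alone it was lower than in Con by 0.23 (SE 0.04, limma adjusted p 0.00144), and with AM580 alone it differed from Con by -0.09 (SE 0.04, 0.0681). At 24 h Gja1 with V580 differed from Con by -0.07 (SE 0.04, limma adjusted p 0.18) and was lower than with AM580 by 0.13 (0.0328).

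Hsd17b1 was lower at 48 h with Vc by 0.56 (SE 0.14) and with V580 by 0.73 (SE 0.14) than with Con, and lower with V580 than with AM580 by 0.55. Hsd17b1 reached 1 FPKM only in Con and in 1 AM580 library of 48 h, so that it was in this test only through the groups where it was high, and its values are no support. They rest on 12 and 13 fragments per library with V580 against 40 and 40 in Con. Grem1 was lower with V580 than with Con by 0.45 (SE 0.12, limma adjusted p 0.00604) and lower than with AM580 by 0.37 (0.0486). The comparisons with Vc and with V580 share the Con libraries.

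In edgeR on the recovered fragments, added after the values were seen, 0 of the 5 tested genes were called at 2-fold at 24 h with Vc (0.816% of 11892 genes), AM580 (1.52%), V580 (3.05%) or V580 against AM580 (0.933%). At 48 h 0 were called with Vc (0.69%), 1 with AM580 (8.84%), 2 with V580 (8.88%) and 2 with V580 against AM580 (1.36%). The gene called with AM580 was Nr5a2, lower by 1.27 (SE 0.21, edgeR adjusted p 7.51e-05). Those called with V580 were Hsd17b1, lower by 1.54 (SE 0.38, edgeR adjusted p 0.00224), and Grem1, lower by 1.21 (SE 0.29, 0.00179). The same pair was lower against AM580, Hsd17b1 by 1.29 (SE 0.40, edgeR adjusted p 0.0306) and Grem1 by 1.07 (SE 0.30, 0.019).

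These genes also differed between 24 h and 48 h in the control cells, a comparison that was likewise added after the values were seen. The 9 stromal markers summed to 513 to 522 FPKM in Con at 24 h and to 138 to 147 FPKM at 48 h. For the 6 immune markers the sums were 44.2 to 46.1 FPKM at 24 h and 8.81 to 8.92 FPKM at 48 h. Their part in these values was not tested. From 24 h to 48 h in Con, Nr5a2 fell by 1.20 in limma (SE 0.09, adjusted p 1.21e-08), while Gja1 rose by 0.79 (SE 0.04, limma adjusted p 1.5e-10). Hsd17b1 stood 0.69 higher (SE 0.14), with the same limit as above. Grem1 stood 0.61 lower (SE 0.12). At 48 h Grem1 reached 1 FPKM in 1 library only, with Vc, so that it passed the filter through the 24 h libraries. Its limma value is thus a description. Of the 4, 1 passed 2-fold (7.72% of all genes) and 4, Hsd17b1 and Grem1 included, were called without the fold limit (66%). In edgeR on fragments 4 of 5 passed 2-fold (17.2%). There Nr5a2 fell by 1.97, Grem1 fell by 1.09 and Hsd17b1 rose by 1.46. The fourth was Esr2, with 1 and 0 fragments at 24 h and 11 and 11 at 48 h, which passed the filter only through 48 h libraries. At 48 h the difference of V580 from Con in Gja1 was thus a smaller rise over time than in Con, since V580 went from 34.5 and 34.7 FPKM at 24 h to 42.2 and 42.1 FPKM at 48 h.

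Finally, the 9 genes were read in the 10x library of V580 cells of day 6, which is 1 sample and allows no test between conditions. Of 15412 barcodes, 15315 cells were kept, with a median of 9281 unique molecular identifiers (UMIs) and 3074 genes per cell and 162844907 UMIs in all. All intervals for this library cover counting error only. Fshr had a UMI in 0 of 15315 cells, which allows a share of up to 0.0196% of cells with a UMI (3 cells of the total) and does not limit how many cells express the gene. Cyp19a1 had 1 UMI in 1 cell. Hsd17b1 had 7 UMIs in 7 cells, or 0.0457% of cells (exact Clopper-Pearson 95% interval 0.0184 to 0.0942%). Esr2 was found in 0.15% of cells (0.0952 to 0.225%), Nr5a2 in 0.222% (0.154 to 0.31%), Nr0b1 in 0.49% (0.385 to 0.613%), Grem1 in 0.64% (0.52 to 0.779%) and Pparg in 1.81% (1.6 to 2.03%). Gja1 was found in 38.4% of cells (37.6 to 39.1%). Transcripts of the FSH receptor and of aromatase were thus at or near the limit of detection at this depth.

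The cells were clustered on the 2000 most variable genes into 12 clusters. Genes seen in fewer than 3 cells, Fshr and Cyp19a1 among them, were left out first. The others of the 9 were not held back from that choice, so that differences between clusters are given as a description. The UMIs of 3 of the genes were not spread evenly. Cluster 8 held 401 of the 511 Pparg UMIs, or 78.5%, with 3.99% of all UMIs of the library. Its 660 cells gave 61.7 Pparg UMIs per 1000000 (exact Poisson 95% interval 55.8 to 68), and the other clusters 0 to 2.26 per 1000000. A Pparg UMI was seen in 27.1% of its cells at a median of 2992 UMIs per cell, against 3.02% in cluster 7 at a median of 22737. Rhox9, Sct and Rhox6 led cluster 8, none of the listed cell type markers was among its leading genes, and it stays unnamed. The bulk V580 level of Pparg and this cluster were measured in different libraries.

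Cluster 3 held 117 of the 218 Grem1 UMIs, or 53.7%, with 14.1% of all UMIs, and they came from 36 of its 1482 cells. It was led by Actg2, Col1a1 and Acta2 and had 3 interstitial markers among its leading genes. Cluster 5 held 28 of the 45 Nr5a2 UMIs, or 62.2%, with 11.7% of all UMIs, in 18 of its 1052 cells. Wfdc2, Stra8 and Cldn3 led it, and the pluripotency marker Dppa5a was among its leading genes beside 3 epithelial markers. Of these, Wnt6 was also listed for pre-granulosa cells. Foxl2 stood at 1.47 UMIs per 1000000 in cluster 5 and at 1.69 in the whole library. Nr0b1 was not gathered to that degree, and its largest part was 28 of 85 UMIs in cluster 2, which held 21.9% of all UMIs. Gja1 was detected in all 12 clusters. It was highest in cluster 7, at 193 UMIs per 1000000 (187 to 198) and in 87.7% of cells, led by Rbp4, Srgn and Pitx1, and by this measure lowest in cluster 8, at 17.2 per 1000000 (14.2 to 20.7). Fst, listed for pre-granulosa cells, was also among the leading genes of cluster 7, where Foxl2 stood at 0.476 per 1000000. A Gja1 UMI was seen in 10.3% of the cells of cluster 8 and in 8.93% of those of cluster 0, at a median of 1464 UMIs per cell there. Per 1000000 UMIs, cluster 8 was thus the highest for Pparg and the lowest for Gja1. No step removed doublets.

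**Figure D4:**
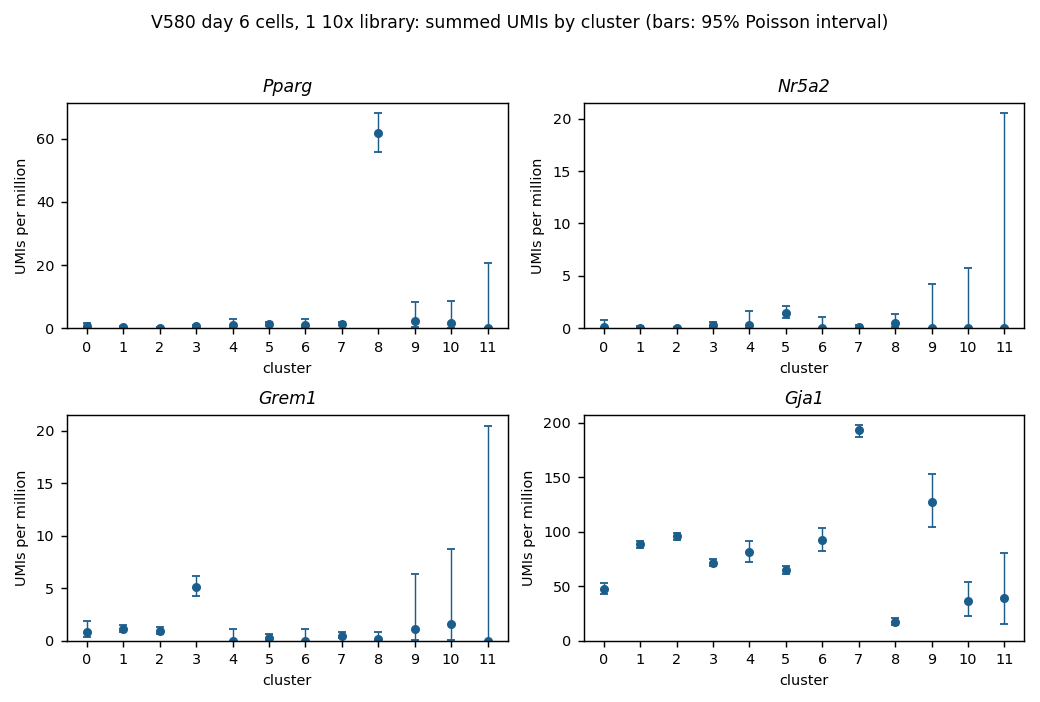
Summed UMIs per 1000000 of Pparg, Nr5a2, Grem1 and Gja1 in the 12 clusters of V580 cells of day 6, from 1 10x library. Bars are exact Poisson 95% intervals. Pparg stands at 61.7 per 1000000 in cluster 8 and at no more than 2.26 elsewhere, and Gja1 is lowest in that cluster.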

How the data were processed

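For the 4 stages of GSCs the authors deposited raw read counts by gene symbol, from Hisat2 alignments to mm10 and featureCounts. The authors deposited FPKM for 31 libraries of ESC treatments, V580 days and E12.5_GC, and the sources used here name no tool for this unit. The authors deposited UMI counts of 1 10x library, made with Cell Ranger. The extract protocol describes poly-A libraries without a strand mark, so reads of a gene and of an antisense partner cannot be told apart. A table with 10 further columns of values was not used, since no label tells their samples. The columns named X580 or A580 and C in the FPKM table were read as AM580 and Vc.

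The 9 genes and all lists were chosen with earlier results of these data known. All 9 are named, from each list at most the 3 called genes with the largest log2 fold change (some of these are not reported here), and for each of the 9 genes up to 2 genes with the highest r of log2(CPM + 0.5). For the stage counts, edgeR 4.0.16 (filterByExpr, TMM, quasi-likelihood test) was run in 1 model of 8 libraries. For FPKM, limma-trend (limma 3.58.1) was run on log2(FPKM + 1) of genes that reached 1 FPKM in 3 of 15 libraries (days) or 2 of 16 (treatments). Alternatives were DESeq2 1.42.0, another scaling, filter or pseudocount, a length trend, a replicate block and leaving out each library. FPKM times exon length (GENCODE vM21) gave whole numbers within 0.05 for 95.5 to 95.7% of values per library, and edgeR was run on these fragments for the 12964 genes (94.8%) whole in all libraries. Same-numbered libraries did not deviate together in the stages (r from -0.0351 to 0.0549) or in the treatments (-0.424 to 0.209). For V580 days and E12.5_GC only the lowest r between any 2 groups was kept (-0.431 to 0.115), so that higher values are not known. Numbers were not treated as pairs.

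For 10x, the study's limits were kept (200 genes or more per cell, mitochondrial UMIs up to 40%), and cells were clustered with scanpy 1.11.5 and Leiden (2000 variable genes, 20 components, 20 neighbours, resolution 0.5). Each procedure was tested on simulated data.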

Additional observations from a re-analysis of the deposited data

Results flagged for a closer look

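The effect of V580 on Gja1 differed between the times. It was -0.07 on the log2 scale at 24 h and -0.59 at 48 h against Con of the same time, and the difference of these effects was -0.52 (SE 0.05, limma adjusted p 6.04e-06), with both V580 libraries below both Con libraries at each time. This was the only 1 of 12 such differences, over 3 treatments and 4 genes, that passed an adjusted p of 0.05. For V580 the same difference was -0.30 for Nr5a2 (adjusted p 0.0694), -0.29 for Grem1 (0.218) and -0.41 for Hsd17b1 (0.131) in limma. These differences were added after the values were seen.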

How the results depend on the processing

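The calls of 8 genes at P6w, against E12.5 and against E16.5, were made under every alternative run. Other counts of called genes moved as follows. For E13.5 against E12.5 (1 called), 3 were called without the filter on low counts (7894 of all 21602 genes). With a length trend 2 were called (5520 of all 16398 genes). For E16.5 against E12.5 the range on leaving out 1 library was 5 to 7. On V580 days against E12.5_GC, edgeR on fragments called 4 on day 4, 5 on day 6, 4 on day 8 and 5 on day 10, and 2 for day 10 against day 4. It tests more of the genes than limma does, and its counts include Esr2, Grem1 and Pparg, which passed its filter only through the higher side. For day 8 in limma the pseudocount of 0.1 and the call without a fold limit gave 2 (2104 and 7270 of all 11512 genes), and leaving out 1 library gave 1 to 2. The second gene was Pparg, which passed the filter only through V580 and had to differ, so its calls add nothing. For treatments, dropping the fold limit called 1 (AM580, 24 h), 2 (V580 against AM580, 24 h), 2 (Vc, 48 h), 1 (AM580, 48 h), 4 (V580, 48 h), 3 (V580 against AM580, 48 h) and 4 (Con at 48 h against 24 h). A pseudocount of 0.1 called 1, 2, 1 and 3 in the last 4 of these (664, 670, 83 and 1410 of all 10644 genes) and edgeR on fragments 1, 2, 2 and 4. The other shares are given above. The counts without the fold limit include Hsd17b1 at 48 h with Vc, with V580, with V580 against AM580 and in Con over time. The last of these also includes Grem1. Both passed the FPKM filter through the groups where they were high, so these calls are no support. The edgeR count of 4 includes Esr2, with the limit given above.

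Some differences that were not called turned their sign. With a length trend, E13.5 against E12.5 gave 0.11 for Nr5a2 and 0.29 for Gja1. On leaving out 1 library, each fit with a group of 1 assumes that it varies like the other groups. E13.5 against E12.5 ranged from -0.12 to 0.02 for Nr0b1, -0.42 to 0.29 for Nr5a2 and -5.88 to 0.42 for Cyp19a1, which was called without the second E12.5 library or the second E13.5 library (the latter gave the lowest value, with 0 counts in the E13.5 library left), and E16.5 against E12.5 from -0.14 to 0.62 for Hsd17b1 and -2.15 to 3.02 for Fshr. Gja1 on day 4 ranged from -0.01 to 0.24 and Pparg between day 4 and day 6 from -0.11 to 0.05. At 24 h Grem1 with Vc ranged from -0.16 to 0.27, Hsd17b1 with AM580 from -0.26 to 0.17 and Nr5a2 with V580 from -0.12 to 0.04. At 48 h Grem1 ranged from -0.15 to 0.13 with Vc and -0.19 to 0.02 with AM580, and Hsd17b1 with AM580 from -0.36 to 0.02. The cause was not tested for any of these.

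With the replicate number as a block, the count of called genes changed in 0 of 19 comparisons and the call of a single gene in 0 of 87, and the number of genes called over the genome moved by a factor of 1.00 to 1.02. The counts of 8 genes at P6w were the same with this block.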

Other observations

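In V580 cells at 48 h against Con, 0 of the 4 genes tested among the 9 passed 2-fold in limma (3.18% of all genes). In edgeR on fragments 2 of 5 did, Hsd17b1 and Grem1 (8.88%). With so few genes these counts allow no contrast with other genes. The genes that follow are from the called genes with the largest changes in their lists, and they do not describe those lists as a whole. Has2, which makes hyaluronan, was lower by 1.96 and Fst, the gene of the activin antagonist follistatin, by 1.80 (SE 0.09 and 0.07, limma adjusted p 2.52e-10 and 3.33e-11), and Gata6 was higher by 1.00. The estrogen receptor partner gene Nrip1 was higher by 1.77 (SE 0.08) and the lipid droplet gene Plin2 by 1.31 (SE 0.05).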
